A study of Homo sapiens with 21 samples.

Results

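A set of 10 genes that mark mast cells, basophils and eosinophils were followed through OCI-AML5, a human acute myeloid leukemia line that the study grew with GM-CSF. The genes were taken by symbol after the version was removed from each gene identifier, and they are 10 of the 58174 genes listed: TPSAB1, TPSB2, CPA3, HDC, FCER1A, MS4A2, PRG2, EPX, CLC and RNASE2. Poly(A) RNA was sequenced from 21 libraries in 7 groups of 3. Control cells were kept in DMSO, the vehicle (labelled 72 h), or exposed to UM171, a small molecule used to expand blood stem cells in culture, for 6, 24, 48 or 72 h. Cells carrying a guide RNA against EPCR, a surface receptor encoded by PROCR (sgEPCR cells), were kept for 24 h in either DMSO or UM171. The labels give 500 nM UM171 in every treated group, while the study's legends give 250 nM. The study describes 3 independent sgEPCR clones. The sgEPCR cells are labelled as EPCR-null clones with an EPCR knockdown genotype, and the labels do not say which library came from which clone. The labels name no guide for the control libraries. Nothing in the labels says that the 3 libraries of a group came from separate cultures, so p-values measure the spread among these libraries.

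Mast cells, basophils and eosinophils are granulocyte-type cells that arise from myeloid progenitors and are known for allergy and for defence against parasites. Mast cells store tryptases, carboxypeptidase A3 and histamine bound to proteoglycan in their granules. Basophils and mast cells carry the high-affinity receptor for IgE, FcεRI, whereas eosinophil granules are packed with cationic proteins. GATA2 and MITF are transcription factors required for mast cell development, KIT is the receptor for the mast cell growth factor, and GATA1 is needed by eosinophils and mast cells.

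Totals lay between 24.3 and 51.5 M counts per library. In 2 libraries, sgEPCR DMSO replicate 1 and sgEPCR UM171 replicate 2, mitochondrial genes took 35.9% and 32.2% of the counts, against 7.73 to 13.5% in the other 19, so counts of calls in sgEPCR cells are given with and without them. Values of summed genes and of genes outside the 10 are given with them. Shares of all tested genes called are also from fits with them and were not counted without them. PROCR, the targeted gene, was at 3.37 to 4.30 TPM in control DMSO, 48.5 TPM in control UM171 at 24 h, 2.30 to 4.53 TPM in sgEPCR DMSO and 4.23 to 8.94 TPM in sgEPCR UM171. TPM, in which the values of a library add up to a fixed total, is a level per length of transcript. Of the 12 markers listed for myeloid leukemia cells, summed TPM lay between 1449 and 1547 in DMSO and between 2230 and 2427 at 72 h. Of the 10 markers of lymphoid and red cells, the sum lay between 25.5 and 26.7 TPM in DMSO and between 60.7 and 64.5 TPM at 72 h. MS4A1 was at 0 in every library and CD3E held at most 4 counts. CD79A was at 9.67 TPM in DMSO and rose at 24, 48 and 72 h (28.5, 38.5 and 21.8 TPM), and CD3D rose from 2 to 7 counts in DMSO to 153 to 236 at 72 h (log2 fold change 5.32 ± 0.28 (SE), adjusted p = 1.29e-11 by edgeR). The part of such other genes in the results was not tested. In bulk RNA, more cells of a type and more RNA per cell cannot be told apart.

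Promoter sequences are shown for the pair of genes with the steepest rise, HDC and CPA3, and for RNASE2, which was abundant in every library. They are the 250 bases before the RefSeq start (GRCh38.p14), read 5′ to 3′ on the strand of the gene. They come from chr15:50265727-50265976 (minus strand) for HDC, chr3:148865046-148865295 (plus strand) for CPA3 and chr14:20955237-20955486 (plus strand) for RNASE2. Capitals mark the letters GATAA (or TTATC, the same motif on the other strand), the core that GATA factors recognise, and CATGTG (or CACATG), an E-box that MITF can bind.
HDC: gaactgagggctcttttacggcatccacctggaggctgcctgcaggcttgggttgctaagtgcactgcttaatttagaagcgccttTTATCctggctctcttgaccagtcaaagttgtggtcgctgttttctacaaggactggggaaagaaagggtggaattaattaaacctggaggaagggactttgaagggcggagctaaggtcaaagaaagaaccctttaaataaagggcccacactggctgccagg
CPA3: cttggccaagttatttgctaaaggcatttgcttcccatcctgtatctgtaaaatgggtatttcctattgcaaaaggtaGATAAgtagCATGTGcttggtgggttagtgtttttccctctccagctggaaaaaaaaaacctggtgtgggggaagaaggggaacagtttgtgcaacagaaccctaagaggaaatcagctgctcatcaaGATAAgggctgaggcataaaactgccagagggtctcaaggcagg
RNASE2: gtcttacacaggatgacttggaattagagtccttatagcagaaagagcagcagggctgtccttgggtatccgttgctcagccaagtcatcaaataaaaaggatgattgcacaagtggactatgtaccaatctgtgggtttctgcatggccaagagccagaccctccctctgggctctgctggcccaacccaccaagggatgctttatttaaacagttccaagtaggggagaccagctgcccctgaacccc
Of the 10 genes, 6 had a promoter entry, and TPSAB1, TPSB2, PRG2 and EPX had none. GATAA or TTATC stood in 5 of the 6 windows (CPA3, HDC, MS4A2, FCER1A and CLC, with 2 matches in CPA3) and in 20.4% of the 35116 entries of the table. CATGTG or CACATG stood only in CPA3 among the 6, against 9.42% of all entries, and CACGTG, which has its own reverse, stood in none of the 6, against 6.34%. The motifs were picked after the windows had been read, and a match is a description of letters.

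Tests compared the groups with edgeR's quasi-likelihood test on rounded expected counts, over all genes that passed a filter on low counts. A call needed more than 2-fold change and a Benjamini-Hochberg adjusted p below 0.0001, and "rose" and "fell" are kept for called genes. The 10 genes were chosen with earlier results of these data known, so counts set beside shares of all tested genes are a description. In the time course, 7 of the 10 genes were tested among 16575, and MS4A2, EPX and CLC were too low. All 4 time points share the same DMSO libraries. No gene of the 10 was called at 6 h, when 7.03% of all tested genes were, and DESeq2 also called 0. At an adjusted p under 0.05 in edgeR with no minimum fold, 2 passed at 6 h, FCER1A and PRG2, against 62.1% of all tested genes. At 24 h CPA3 and FCER1A rose and PRG2 fell, which makes 3 of 7 against 13.7% of all tested genes. By 48 h, and again by 72 h, 6 genes rose (CPA3, TPSAB1, TPSB2, HDC, FCER1A and PRG2), against 16.4% and 20.8% of all genes called. Those shares were 11.7% and 15% for higher genes alone. CPA3, HDC and FCER1A held 4 to 5, 2 to 4 and 1 to 2 counts in DMSO and passed the filter through treated libraries. With at least 10 counts required in every library, 3 genes were called at 48 h and 3 at 72 h. RNASE2 was called at no time. Lack of overlap was common: by counts relative to library size, 35.6% of all tested genes at 6 h and 39.9% at 72 h lay above every DMSO library.

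**Figure D1:**
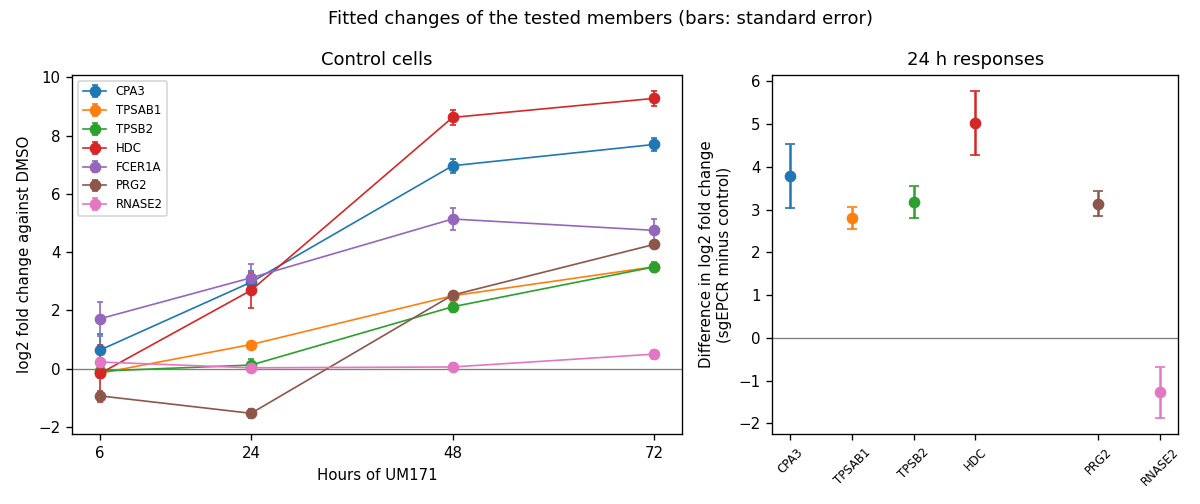
Left: log2 fold change against DMSO (y axis) for 7 tested genes by hours of UM171 (x axis) in control cells, with bars for the standard error. HDC reached 9.28 at 72 h, PRG2 was below 0 at 6 and 24 h, and RNASE2 stayed between 0.03 and 0.50. Right: the 24 h log2 fold change in sgEPCR cells minus that in control cells, for the 6 genes tested there.

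Among the 7 tested genes, HDC had the largest fold changes at 48 h and 72 h, while FCER1A and CPA3 had larger ones at 24 h. HDC (ENSG00000140287, chr15:50241947-50265965, minus strand) encodes histidine decarboxylase, the enzyme that makes histamine. It held 3, 4 and 2 counts in the DMSO libraries and 2, 4 and 2 at 6 h, which overlapped. At 24 h it held 26, 22 and 21 counts. At 48 h it reached 37.5, 36.1 and 19.6 TPM, and at 72 h 43.4, 58.6 and 52.9 TPM. The 48 h libraries overlapped none of the others, and the third of them lay lowest. The fitted log2 fold change was 2.69 ± 0.60 (SE) at 24 h, with an adjusted p of 0.00072 by edgeR that missed the limit of 0.0001. It was 8.63 ± 0.26 at 48 h (adjusted p = 1.94e-14) and 9.28 ± 0.25 at 72 h (adjusted p = 3.27e-15). By summed counts, the 6110 counts at 72 h were 646 times the 9 in DMSO (95% counting interval 340.1 to 1414), a ratio that a few reads in DMSO decide. Mean levels fell in the order 72 h (51.6 TPM ± 7.69 (SD, n = 3)), 48 h (31.1 ± 9.96), sgEPCR in UM171 (9.51 ± 4.25), 24 h (0.537 ± 0.246), DMSO (0.09), 6 h (0.0667) and sgEPCR in DMSO (0.0267). The neighbours from DMSO to sgEPCR in DMSO did not separate.

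CPA3 (ENSG00000163751, chr3:148865296-148897203, plus strand), the mast cell carboxypeptidase that is stored with the tryptases, followed a similar course but with an earlier call. The DMSO libraries held 5, 4 and 5 counts. At 6 h it held 8, 3 and 11, which overlapped DMSO. At 24 h the counts were 59, 35 and 34, all above every DMSO and 6 h library, and CPA3 rose by 2.97 ± 0.38 on the log2 scale (adjusted p = 2.03e-06, edgeR). At 48 h its 3 libraries held 804, 537 and 451 counts, or 14.9 to 17.0 TPM (log2 fold change 6.97 ± 0.23). At 72 h the libraries were close to each other at 26.7, 26.1 and 26.9 TPM, and the log2 fold change was 7.70 ± 0.22 (adjusted p = 7.94e-15, edgeR). The 3123 summed counts at 72 h were 212 times the 14 in DMSO, with a counting interval of 126 to 389. Its order of levels was 72 h (26.6 ± 0.382 TPM, SD), sgEPCR in UM171 (20.95 ± 1.74), 48 h (15.6 ± 1.21) and 24 h (0.983 ± 0.342). In TPM the first 3 did not overlap in any pair, while 6 h, sgEPCR in DMSO and DMSO (0.25, 0.243 and 0.13 TPM) did. In TMM-scaled CPM (counts relative to library size) sgEPCR in UM171, at 21.2 to 31.4, overlapped 72 h, at 26.6 to 28.8. The highest value was that of replicate 2, rich in mitochondrial counts.

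The tryptases began from a higher level. TPSAB1 (ENSG00000172236, chr16:1240379-1242554, plus strand) and TPSB2 (ENSG00000197253, chr16:1227272-1230184, minus strand) encode the alpha and beta tryptases, trypsin-like proteases that are the most abundant proteins of mast cell granules. They are close copies, so reads were split between them by RSEM. The deposited uncertainty of the split reached 11.5% of the count for TPSAB1 and 55.7% for TPSB2. TPSAB1 held 9.37, 10.5 and 11.1 TPM in DMSO and 11.2, 9.49 and 11.4 TPM at 6 h, which overlapped. At 24 h it held 17.8, 19.4 and 18.9 TPM, above every DMSO library, with a log2 difference of 0.83 ± 0.10 (adjusted p = 1.54e-06, edgeR) that was under 2-fold. At 48 h it rose to 61.7, 50.8 and 58.2 TPM (log2 fold change 2.501 ± 0.096), and at 72 h to 126, 118 and 123 TPM (3.50 ± 0.09, adjusted p = 3.47e-15). TPSB2 lay between 0.78 and 1.53 TPM in the DMSO, 6 h and 24 h libraries, and its 24 h log2 difference was 0.12 ± 0.21. It rose to 5.61, 5.06 and 4.40 TPM at 48 h (2.12 ± 0.18) and to 15.1, 13.8 and 12.8 TPM at 72 h (3.49 ± 0.17, adjusted p = 4.37e-12). Summing the pair removes the split, and the sum gave 0.76 at 24 h, 2.46 at 48 h and 3.50 ± 0.09 at 72 h (adjusted p = 1.34e-15, edgeR). The delta tryptase gene TPSD1, another near copy, was at 0 in all 3 DMSO libraries and at 24 to 32 counts at 72 h. TPSG1 was at 0 in all 21 libraries.

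**Figure D2:**
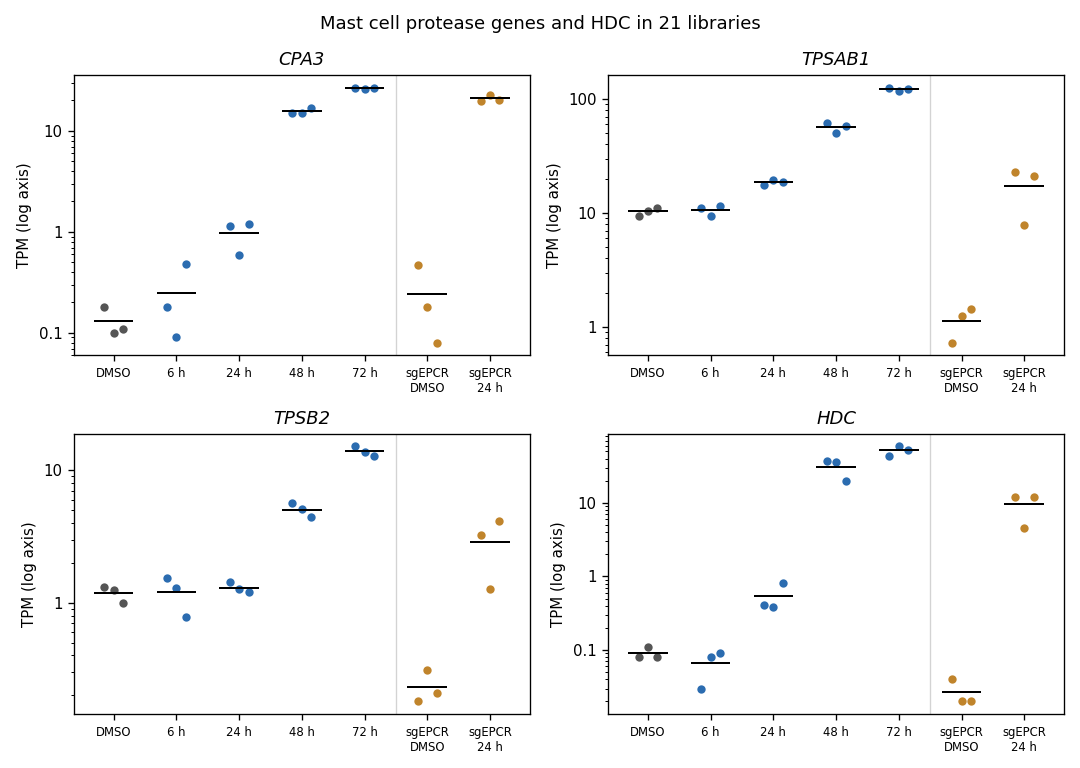
Level in TPM (log y axis) of CPA3, TPSAB1, TPSB2 and HDC in each of 21 libraries (points), by group, with a bar at the mean of 3. Blue marks UM171 in control cells and orange sgEPCR cells. CPA3 and HDC began near 0.1 TPM, and TPSAB1 began near 10 TPM.

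The genes of the IgE receptor stayed at low levels. FCER1A (ENSG00000179639, chr1:159289714-159308224, plus strand) encodes the alpha chain that binds IgE. It held 2, 1 and 1 counts in DMSO, then 5, 7 and 2 after 6 h and 19, 19 and 6 after 24 h. The later libraries held 60, 53 and 38 counts (48 h) and 31, 39 and 53 counts (72 h). In raw counts every library from 24 h on lay above every DMSO library. In TMM-scaled CPM the 6 h libraries did too, at 0.0666 to 0.201 against 0.0257 to 0.0590, as did 35.6% of all tested genes. The 6 h log2 fold change was 1.71 ± 0.59 (adjusted p = 0.0271, edgeR, not called) and that of 24 h was 3.12 ± 0.48 (adjusted p = 1.85e-05). It reached 5.14 ± 0.39 by 48 h and was 4.75 ± 0.40 by 72 h. In summed counts, 151 at 48 h against 4 gave a ratio of 37.9 (95% counting interval 14.5 to 141). Its highest mean was only 2.04 TPM, at 48 h, and the 48 h and 72 h libraries overlapped. MS4A2 (ENSG00000149534, chr11:60088261-60098467, plus strand), the beta chain that amplifies the signal, held 0 to 5 counts in every group but that of 72 h, which held 4, 17 and 13. The 72 h libraries all lay above the DMSO libraries of 2, 2 and 0 counts. The ratio was 8.09 with a counting interval of 2.88 to 31.4, and no test was made because the gene failed the filter. FCER1G, the gamma chain shared with other Fc receptors, held 16 to 30 counts in DMSO and 25 to 28 at 72 h (log2 difference 0.27 ± 0.32, adjusted p = 0.44, edgeR).

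**Figure D3:**
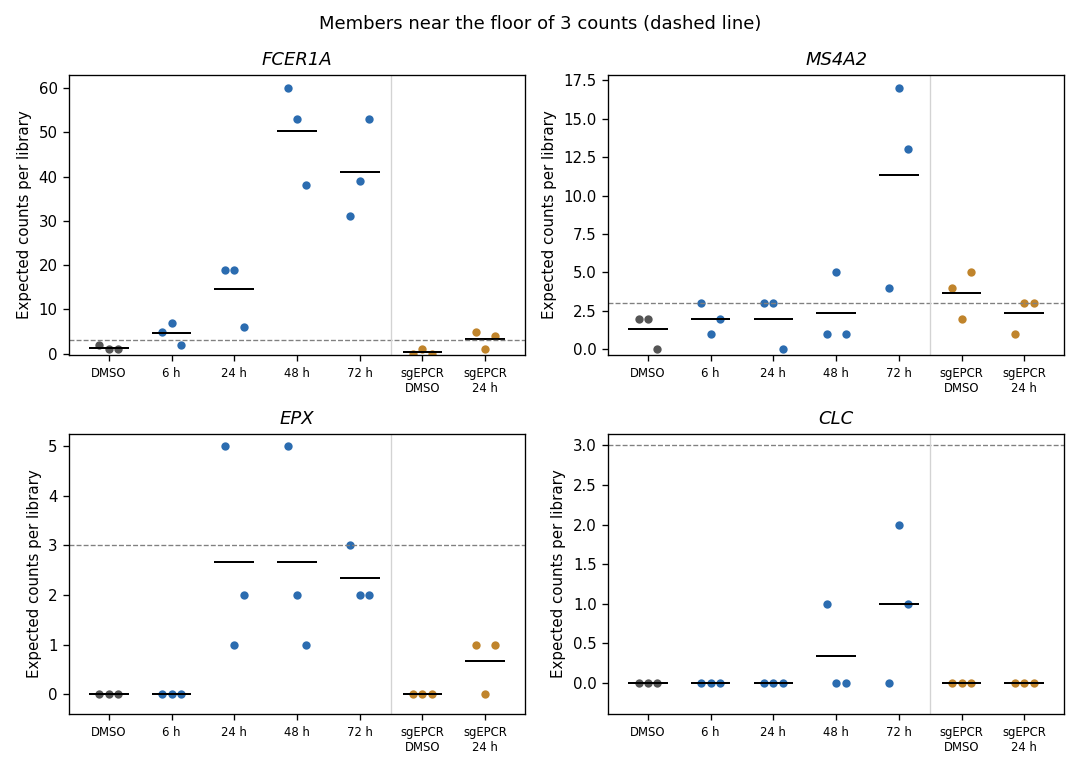
Expected counts per library (linear y axis) of FCER1A, MS4A2, EPX and CLC by group, with a bar at the mean and a dashed line at the floor of 3 counts. FCER1A reached 60 counts at 48 h, and CLC never passed 2.

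The eosinophil genes split. PRG2 (ENSG00000186652, chr11:57386780-57390650, minus strand) encodes major basic protein, the core of the eosinophil granule, and it first fell and then rose. It stood at 10.4, 13.0 and 11.6 TPM in DMSO and at 7.62, 6.38 and 6.23 TPM at 6 h, below every DMSO library, with a log2 difference of -0.94 ± 0.15 (adjusted p = 5.06e-05, edgeR) just under 2-fold. At 24 h it fell to 4.60, 2.83 and 4.60 TPM (log2 fold change -1.54 ± 0.16, adjusted p = 2.01e-07). It then rose above DMSO to 69.2, 67.5 and 48.3 TPM at 48 h (2.53 ± 0.12) and 202, 246 and 212 TPM at 72 h (4.26 ± 0.12, adjusted p = 7.94e-15), the highest level of a called gene of the 10. A longer coding gene on the same strand, ENSG00000254979 (chr11:57387365-57424059), overlaps PRG2 and takes part of its reads, with 90.6 to 120.3 TPM in DMSO. Summed with it, the log2 values in order of time were -0.41, -1.10, 1.81 and 2.94 ± 0.09, so the direction was the same at all 4 times and the calls were too.

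RNASE2 (ENSG00000169385, chr14:20955487-20956436, plus strand), the eosinophil-derived neurotoxin, is an RNase that myeloid cells of other kinds also make. It was the most abundant of the 10 genes in DMSO, at 243, 220 and 227 TPM, and was called in neither direction. After 6 h it stood at 324, 286 and 294 TPM, all above DMSO, and after 24 h at 234, 251 and 236 TPM. The 48 h libraries stood at 203, 199 and 292 TPM and the 72 h libraries at 371, 340 and 311 TPM. In order of time the log2 differences were 0.23, 0.03, 0.05 and 0.50, each ± 0.15 (72 h adjusted p = 0.0070, edgeR, not called). The 24 h, 48 h and DMSO libraries did not separate. Its near copy RNASE3, eosinophil cationic protein, fell at 48 h (log2 fold change -1.21 ± 0.12, adjusted p = 5.0e-08) and was not called at 72 h (-0.45 ± 0.11).

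EPX, eosinophil peroxidase (ENSG00000121053), was at 0 counts in all DMSO and 6 h libraries and held 5, 1 and 2 counts after 24 h, 5, 2 and 1 after 48 h, and 3, 2 and 2 after 72 h. With a floor of 3 counts over the group in place of 0 in DMSO, the 8 summed counts at 48 h were 2.68-fold higher. The counting interval of the ratio to DMSO began at 1.71 and had no upper limit. CLC, which encodes galectin-10, the protein of Charcot-Leyden crystals (ENSG00000105205), held 1 count in all at 48 h and 0, 2 and 1 at 72 h, and 0 in every other library. At this depth its level was not detectable in most groups. A count of 3 corresponds to 0.158 to 0.337 TPM for CLC and 0.0327 to 0.0694 TPM for EPX. Among markers of eosinophils outside the 10, IL5RA held 0 to 4 counts in every library, CCR3 at most 9 and SIGLEC8 9 to 11 at 72 h.

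**Figure D4:**
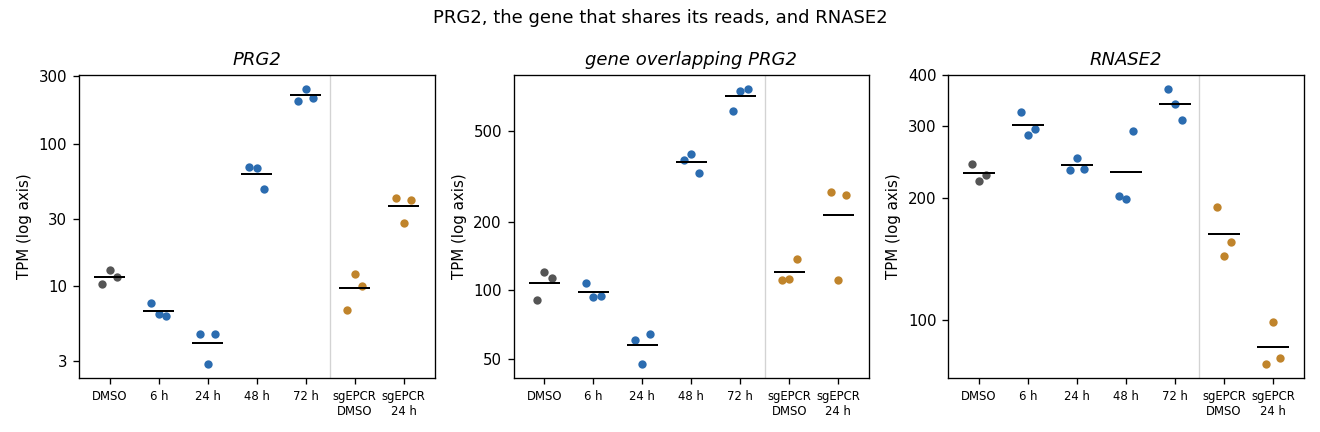
Level in TPM (log y axis) of PRG2, of the gene that overlaps it and of RNASE2 in each library (points) with a bar at the mean of 3. The mean of PRG2 was 11.7 TPM in DMSO, 4.01 by 24 h and 220 by 72 h, whereas RNASE2 lay between 199 and 371 TPM in every control library.

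Other genes of the lineages were counted from lists compiled for the purpose, with earlier results of these data known. The counts set beside shares of all tested genes are therefore a description. Of 22 other mast cell genes, 14 were tested, and 2, 4, 6 and 9 of them rose in order of time, with none of the 14 lower. Of all tested genes, 6.78%, 9.03%, 11.7% and 15% were called higher at these times, and 0.247%, 4.7%, 4.67% and 5.8% lower. The median log2 difference of the 14 was 2.24 at 72 h, against 0.02 for all tested genes. TPSD1, HPGDS and IL1RL1 held 0, 1 and 3 summed counts in DMSO and passed the filter through treated libraries. KIT, on the same list, went from 16 summed counts in DMSO to 0 at 48 h and failed it. CMA1, at 0 in every library, and LTC4S, at 0 to 4 counts per library, failed the filter too. The count of lower genes and the median therefore depend in part on the filter. ENPP3 (CD203c), a surface marker of activated basophils and mast cells, rose at all 4 times, by 2.38 at 6 h and 7.28 ± 0.14 at 72 h (adjusted p = 1.0e-16, edgeR). HPGDS, the prostaglandin D2 synthase of mast cells, rose by 8.27 ± 0.40 at 72 h. IL1RL1, the IL-33 receptor, rose by 8.26 ± 0.30 at 72 h. SLC18A2, which loads amines into vesicles, rose at 6 h only (3.96 ± 0.59, 22 to 23 counts against 0 to 3 in DMSO), and its 72 h log2 difference was 2.30 ± 0.71 (adjusted p = 0.0077). The difference between its 6 h and 72 h values was not tested. Cathepsin G (CTSG) rose by 2.11 ± 0.06 at 72 h.

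The regulators of the lineages differed from each other. GATA2 measured 33.8 ± 0.26 TPM in DMSO, and it rose to 118 ± 24.7 by 24 h and to 202 ± 25.7 by 48 h (log2 fold change 2.58 ± 0.10, adjusted p = 3.8e-13, edgeR). MITF, at 2.38 TPM in DMSO, rose to 37.4 TPM by 48 h (3.97 ± 0.14). At 6 h, MITF had a log2 difference of 0.98 ± 0.15 (adjusted p = 2.6e-05), just under 2-fold. CEBPB rose at 48 h and 72 h, and CEBPE, a regulator of eosinophil and neutrophil granules, fell at 24 h (-1.18 ± 0.07). In all, 3 of 18 tested factors rose at 72 h and 1, SPI1, fell, close to the shares of all tested genes called higher (15%) and lower (5.8%). GATA1 was at 0 in all but 1 library, a 48 h library with 1 count. KIT was no longer detected late in the course. It held 3 to 8 counts in DMSO and 0 in all 3 libraries at 48 h and at 72 h, with no test. With a floor of 3 counts over the group in place of 0, KIT was 5.32-fold lower at 48 h and 5.60-fold lower at 72 h. The counting interval of its ratio to DMSO reached up to 0.260 at 48 h and 0.247 at 72 h.

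**Figure D5:**
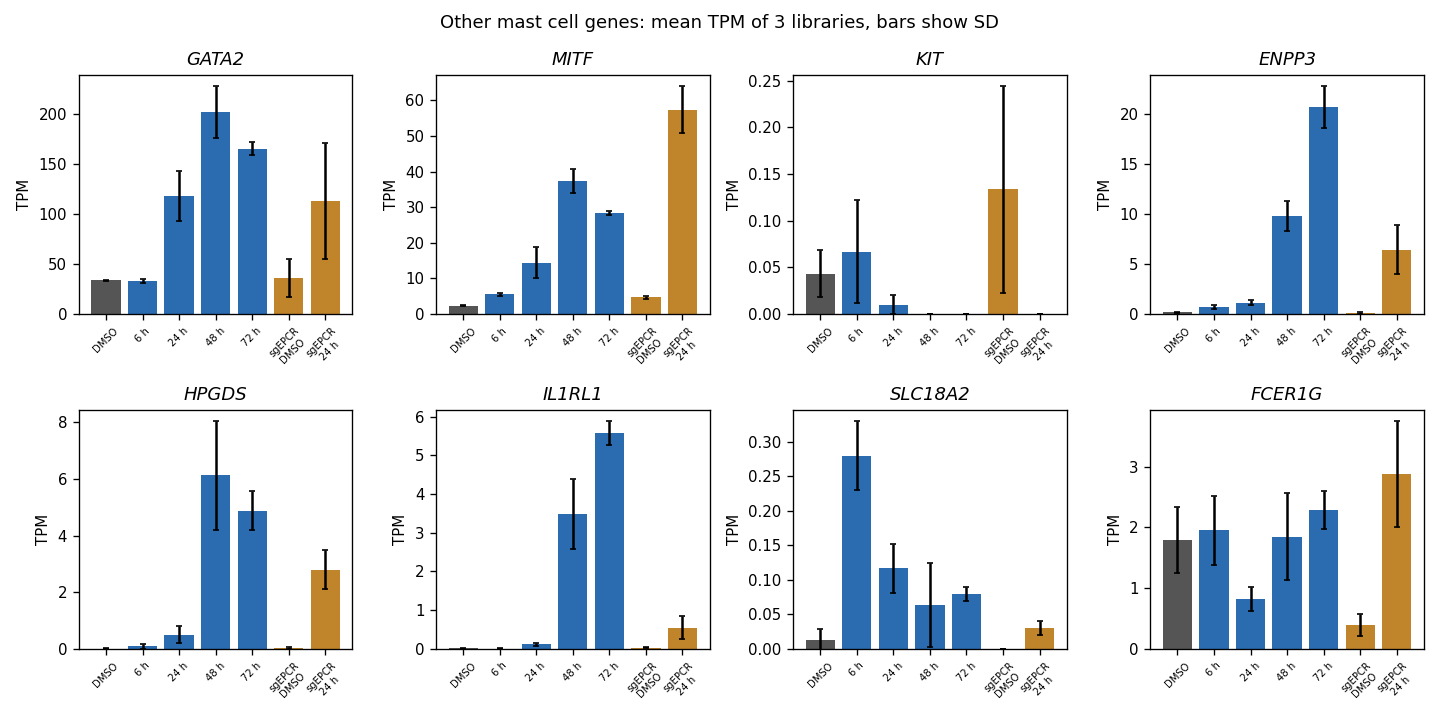
Mean TPM (y axis, linear, from 0) of 8 other genes of these lineages by group, with bars for the SD of 3 libraries. GATA2, MITF, ENPP3, HPGDS and IL1RL1 were higher at 48 h and 72 h than in DMSO, KIT was at 0 there, and SLC18A2 was highest at 6 h.

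Of 20 basophil and eosinophil genes outside the 10, 9 were tested, and 3 rose at 72 h (ADGRE1, IL3RA and CSF2RB) while 0 fell, against 15% and 5.8% of all tested genes, shares that serve for the other lists at 72 h too. At 24 h none rose and CEBPE and HRH4 fell. IL3RA, the IL-3 receptor alpha chain, rose by 1.07 ± 0.05 and CSF2RB, the common beta chain for IL-3, IL-5 and GM-CSF, by 1.00 ± 0.07 (adjusted p = 2.9e-10, edgeR). Of 18 genes that carry FcεRI signals, 16 were tested. FYN and GAB2 rose at every time, by 4.61 and 3.20 at 72 h, while LAT, the adaptor of the receptor, fell at 24, 48 and 72 h. The other 13 were not called at 72 h, and the list's median was 0.19. Of 18 genes for the granule core, histamine and lipid mediators, 16 were tested and 7 rose at 72 h. They include HNMT, which breaks histamine down (1.55 ± 0.08), ALOX5 (1.40 ± 0.08), ALOX5AP (3.58 ± 0.16) and PTGS1 (1.39 ± 0.05). SRGN, the serglycin core on which granule proteins are packed, was at 2370 ± 40.2 TPM in DMSO and 2795 ± 190 at 72 h, a log2 difference of 0.17 ± 0.04.

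In sgEPCR cells, 6 of the 10 genes were tested among 15901 (FCER1A failed the filter there, with 0, 1 and 0 counts in DMSO and 5, 1 and 4 in UM171). After 24 h of UM171, 5 of the 6 were called, all higher, against 10.3% of all tested genes. HDC went from 2, 1 and 1 counts to 409, 207 and 504 (log2 fold change 7.78 ± 0.40, adjusted p = 1.04e-07, edgeR). CPA3 went from 8, 7 and 4 counts to 770, 719 and 959 (6.80 ± 0.42), and the treated libraries were at 19.6, 22.9 and 20.4 TPM. TPSAB1 went from 0.73, 1.26 and 1.43 TPM to 22.9, 7.80 and 21.2 TPM (3.63 ± 0.20), with replicate 2, the library rich in mitochondrial counts, the lowest. TPSB2 rose by 3.29 ± 0.28. PRG2 went from 6.85, 12.2 and 10.0 TPM to 41.7, 27.98 and 40.7 TPM (1.63 ± 0.20, adjusted p = 5.82e-05), and with its overlapping gene summed in, the log2 difference was 0.85 ± 0.17 (adjusted p = 0.0018), which was not called. RNASE2 went from 190, 144 and 156 TPM to 78.0, 99.3 and 80.9 TPM, with a log2 difference of -1.24 ± 0.43 (adjusted p = 0.0308, edgeR). Without the 2 libraries rich in mitochondrial counts RNASE2 fell by 1.12 on the log2 scale (adjusted p = 3.91e-09), and the other 5 remained called with log2 values from 1.66 for PRG2 to 8.53 for HDC. Of the 6 genes, 6 were then called, and the share of all tested genes called in that smaller fit was not counted. With only the sgEPCR groups in the fit 0 were called, and limma called 2 and 3 at pseudocounts of 1 and 0.1. HDC and CPA3 passed the filter here through treated libraries. With at least 10 counts required in every library, 2 were called.

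Before treatment, sgEPCR and control cells differed in the tryptases. In DMSO, TPSAB1 stood at 0.73 to 1.43 TPM in sgEPCR cells against 9.37 to 11.1 TPM in control cells, without overlap, and the log2 difference was -2.77 ± 0.20 (adjusted p = 4.04e-06, edgeR). That was 1 of 6 genes called, against 2.84% of all tested, and 0 were called with only the groups compared in the fit or with limma. Of all tested genes, 27.3% lay lower without overlap in this comparison. Without the 2 libraries TPSAB1 differed by -2.83. TPSB2 had a log2 difference of -1.90 ± 0.29 (adjusted p = 0.000548), and it was called without the 2 libraries (-2.03 ± 0.32, adjusted p = 6.73e-05). The sum of the pair was lower by 2.65 on the log2 scale, 1.37 against 11.5 TPM. CPA3, HDC, PRG2 and RNASE2 did not pass the limit in DMSO. For RNASE2, the log2 difference was 0.17 ± 0.42, and without the 2 libraries it was -0.51 ± 0.06 (adjusted p = 5.03e-06), under 2-fold. The labelled times of the DMSO libraries were 72 h in control cells and 24 h in sgEPCR cells, and clone and guide cannot be told apart.

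After 24 h of UM171, CPA3, HDC and PRG2 were higher in sgEPCR than in control cells, 3 of 6 against 4.46% of all tested genes. CPA3 differed by 4.52 ± 0.34 (20.95 against 0.983 TPM), HDC by 4.18 ± 0.28 (9.51 against 0.537 TPM) and PRG2 by 3.44 ± 0.22 (36.8 against 4.01 TPM). All 3 lay above control cells without overlap, as did 26.1% of all tested genes by counts relative to library size. Without the 2 libraries these values were 4.35, 4.32 and 3.34, and with only the groups compared in the fit, or with limma at a pseudocount of 0.1, 0 genes were called. TPSAB1 did not separate, at 7.80 to 22.9 against 17.8 to 19.4 TPM (log2 difference 0.02 ± 0.16). TPSB2 differed by 1.28 ± 0.23 (adjusted p = 0.0011, edgeR). It passed the limit without the 2 libraries (1.44, adjusted p = 1.74e-05, edgeR), as did RNASE2, which was then lower (-1.66 ± 0.07). In that fit 5 of 6 were called, with no share of all tested genes counted. FCER1A, which failed the filter for sgEPCR cells, went the other way. After 24 h of UM171 it held 10 summed counts in sgEPCR cells against 44 in control cells, without overlap. The ratio was 0.271 with a counting interval of 0.122 to 0.547, and it rests on few counts. MS4A2 and EPX, also untested, overlapped between these groups, and CLC was at 0 in both.

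The difference of the responses was tested as an interaction. The control response was taken against DMSO labelled 72 h, and the sgEPCR response against DMSO labelled 24 h. Genotype and time in DMSO therefore cannot be told apart in the interaction. The interaction was called for TPSAB1 (2.80 ± 0.26, adjusted p = 1.19e-05, edgeR), TPSB2 (3.18 ± 0.37) and PRG2 (3.13 ± 0.29), 3 of 6 against 7.77% of all tested genes. Without the 2 libraries these values were 3.05, 3.47 and 3.20, and limma called 1 and 0 genes at pseudocounts of 1 and 0.1, and 1 was called with total count scaling. HDC (5.03 ± 0.74, adjusted p = 0.000291) and CPA3 (3.78 ± 0.75, adjusted p = 0.0020) had larger values that missed the limit of 0.0001, and their DMSO levels rest on 1 to 8 counts per library. Without the 2 libraries 5 were called, HDC at 5.83 ± 0.84 (adjusted p = 2.31e-05, edgeR) and RNASE2 at -1.14 ± 0.09 (adjusted p = 3.88e-08) included, and CPA3 stood at 4.15 (adjusted p = 0.000141). The share of all tested genes was not counted for that fit. For TPSAB1 the TPM levels in UM171 overlapped between sgEPCR and control cells, while those in DMSO did not. For TPSB2 only sgEPCR replicate 2, at 1.27 TPM, overlapped the control cells in UM171, which reached 1.44 TPM. In TMM-scaled CPM (counts relative to library size) the groups did not overlap, at 1.64 to 2.83 against 0.844 to 1.03. With the overlapping gene summed in, PRG2 gave 1.93 (adjusted p = 0.000109), which missed the limit. Without sgEPCR DMSO replicate 2, 1 of the 6 was called. MS4A2 (1, 3 and 3 counts), EPX (1, 0 and 1) and CLC (0) stayed near the floor in treated sgEPCR cells. KIT was again at 0 in all 3 libraries of sgEPCR cells in UM171, against 5 to 14 counts in DMSO.

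Over the 21 libraries, the genes whose log2 levels followed each member most closely were picked from 13300 genes by Pearson's r. The points share libraries and treatments, and r is a description. CPA3 went with GCSAML (r = 0.99), PROS1 and FMO1. HDC went with GZMB (0.99), GJA1 and COL8A1. TPSAB1 went with SETBP1 (0.98), PALLD and GDF15, and TPSB2 with FLOT1 (0.97), CYSLTR2 and PALLD. FCER1A went with ARHGAP25 (0.96), SV2A and NAV3. PRG2 went with HOXB3 (0.97), its overlapping gene (0.97) and WBP2 (0.94), and RNASE2 with ENSG00000274911 (0.91), FAM72D and C15orf61 (0.89).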

How the data were processed

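The authors deposited, for each of the 21 libraries, RSEM's expected counts per gene (not normalized, with shared reads split), its TPM (scaled to a common total per library), and columns of other values, such as effective length and posterior SD, that describe the estimate. The submitters' processing notes name CASAVA 1.8.2, Trimmomatic 0.35, STAR 2.5.1b, RSEM 1.2.28 and GRCh38, whereas the study's methods describe kallisto, sleuth and annotation version 84. Coordinates are from GENCODE 44 (GRCh38). Counts were rounded and fitted with edgeR 4.0.16 in R 4.3.3 (filterByExpr, TMM, glmQLFit, glmQLFTest, Benjamini-Hochberg over all tested genes): 15 libraries for the time course, 12 for sgEPCR. The standard error is the absolute log2 fold change over the square root of F. Fits were checked on simulated data with the same spread for all genes and changes only in genes of higher counts. The check does not cover genes with as few counts as CPA3, HDC and FCER1A held in DMSO.

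Each file lists 58219 entries. Totals of 24.3 to 51.5 M counts set a floor of 3 counts, and intervals (95%, exact) cover counting error only. Named were all 10 genes, the near copies, KIT, GATA2, GATA1, FCER1G, CSF2RB, IL3RA, IL5RA, CEBPE, MITF and SRGN, at most 5 called genes per list and comparison, the 3 genes most like each member, and markers of other cells. The 10 genes and the lists were chosen with earlier results of these data known. CD3D, CD79A, SIGLEC8, CCR3, ADGRE1, HNMT, LAT, CMA1 and LTC4S are named from those lists. Alternatives were limma 3.58.1 with log2(TPM + 1) or log2(TPM + 0.1), DESeq2 1.42.0, other scalings, filters, thresholds and sets of libraries, the replicate block, leaving out each library, and, chosen after seeing the data, PRG2 summed with its overlapping gene. Figures used Python 3.11.15 and matplotlib 3.10.9.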

Additional observations from a re-analysis of the deposited data

Results flagged for a closer look

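The 24 h response to UM171 differed between sgEPCR and control cells at an adjusted p under 0.05 for the difference itself (edgeR, interaction in the fit of 12 libraries) in 5 of the 6 genes tested, and 45% of all tested genes passed this limit. Control DMSO is labelled 72 h and sgEPCR DMSO 24 h, so genotype and time in DMSO cannot be told apart here. The difference in log2 fold change, sgEPCR minus control, was 3.78 for CPA3 (adjusted p = 0.0020), 2.80 for TPSAB1 (1.19e-05), 3.18 for TPSB2 (5.72e-05), 5.03 for HDC (0.000291) and 3.13 for PRG2 (1.33e-05).

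Other genes of the lists that the text names also passed. The difference was above 0 for ALOX5 (4.29), FCER1G (3.85), HRH4 (2.95), IL3RA (2.91), PTGS1 (2.70), ENPP3 (2.502), ALOX5AP (2.13), ADGRE1 (2.05), LAT (1.92), SPI1 (0.94), CEBPB (0.91), MITF (0.86), CSF2RB (0.57) and GAB2 (0.46). It was below 0 for CD79A (-2.43), CTSG (-1.66), RNASE3 (-1.34) and HNMT (-0.95). These values include the 2 libraries rich in mitochondrial counts.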

How the results depend on the processing

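At 48 h and 72 h, the 6 called genes kept direction and call under all 316 alternative values from fits that tested them. Fits whose filter left a gene out gave no value for it. With at least 10 counts required in every library, 3 genes were called at each of these times. Depth limits FCER1A, MS4A2, EPX and CLC, which rest on few counts.

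The number called changed as follows. At 6 h it was 0, and 2 at an adjusted p under 0.05 with no minimum fold, and 0 to 1 when each library was left out (1 without UM171 6 h replicate 1). At 24 h it was 3, then 5 at 0.05, 1 with limma on log2(TPM + 1), 1 with at least 10 counts in every library (fewer genes tested), and 2 to 4 with libraries left out. At 48 h and at 72 h it was 6, and 3 with at least 10 counts. For UM171 in sgEPCR cells it was 5, then 2 and 3 with limma (pseudocounts 1 and 0.1), 2 with at least 10 counts, 0 with only the groups compared, and 4 to 5 with libraries left out. For sgEPCR in DMSO it was 1, then 2 at 0.05, 2 with DESeq2, 0 and 0 with limma, 2 with all 21 libraries, 0 with only the groups compared, and 2 without the high-mitochondrial libraries. For sgEPCR in UM171 it was 3, then 0 with limma (0.1), 1 with at least 10 counts, 0 with only the groups compared, and 5 without those libraries. For the interaction it was 3, then 5 at 0.05, 1 with total count scaling, 5 with DESeq2, 1 and 0 with limma, 5 without those libraries, and 1 to 3 with libraries left out (1 without sgEPCR DMSO replicate 2). The cause was not tested.

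With the replicate number as a block, 1, 0, 0 and 0 genes were called in the 4 sgEPCR comparisons, in the same order. The numbers as labelled do not pair the samples: deviations of same-numbered sgEPCR libraries correlated at -0.88, -0.88 and 0.80, and those of control groups lay from -0.08 to 0.24. Deviations of sgEPCR DMSO replicate 1 and sgEPCR UM171 replicate 2, the 2 libraries rich in mitochondrial counts, correlated at 0.90. Whether these 2 came from the same clone is not known, and a block by clone was not tested. Differences between clones, if present, add to the spread in the sgEPCR fits.

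Values that changed sign were small or uncertain. At 6 h, TPSAB1 gave 0.023 with total count scaling and 0.043 and 0.046 with limma. TPSB2 gave 0.010 with upper quartile and 0.096 with total count scaling, 0.00073 with limma, and -0.36 to 0.10 with libraries left out. HDC gave 0.0079 with total counts and -0.60 to 0.11 with libraries left out. RNASE2 ranged from -0.0078 to 0.089 at 24 h and from -0.25 to 0.20 at 48 h with libraries left out (-0.25, adjusted p = 0.0165 by edgeR, without UM171 48 h replicate 3), and gave -0.014 and -0.015 with limma. In DMSO, sgEPCR against control, PRG2 gave -0.27 and -0.30 with limma. RNASE2 there gave -0.24 with total counts, -0.50 and -0.50 with limma, -0.51 without the high-mitochondrial libraries, and -0.51 to 0.43 with libraries left out. In UM171, TPSAB1 gave -0.048 with total counts, -0.23 and -0.26 with limma, -0.013 with no filter, and -0.11 to 0.21 with libraries left out. Total count scaling shifted the median of all genes by 0.18 at 6 h and by -0.25 for sgEPCR in DMSO, where limma shifted it by -0.43.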
